A study of Mus musculus with 4 samples.

Results

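The genes described here are 10 of the 19059 genes measured: the oxidative stress genes Hmox1, Srxn1, Txnrd1, Gclm, Nqo1, Slc7a11, Gsr and Prdx1, and the metallothionein genes Mt1 and Mt2. They were chosen by name and read in all 4 libraries, in macrophage-like, monocyte-like, neutrophil-like, lymphoid and stromal or tumor-like cells of MC38 tumors. MC38 is a mouse colon carcinoma cell line. The hosts were B-hCTLA-4 mice (Biocytogen, host strain C57BL/6), in which CTLA-4 is humanized, and each received MC38 cells subcutaneously. Intraperitoneal treatment began at a tumor size of about 100 mm3. Cells were collected on day 8, after 3 treatments, and tumors of 11 mice were pooled into 1 sample per group. The isotype control group received hIgG1 at 10 mg/kg, and the combination group received ipilimumab (anti-human CTLA-4, human IgG1) at 10 mg/kg with the anti-mouse FcgRII antibody AT130-2 (mIgG1-N297A) at 20 mg/kg. Each of the other 2 groups received 1 of these antibodies, but the sample titles and the treatment fields name opposite antibodies for them. They are called here by their titles (1 names anti-human CTLA-4, the other anti-mouse FcgRII), and which of them received which antibody was not settled. All 4 samples carry the label batch 1.

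Transcription factor NRF2 (gene Nfe2l2) is held low by KEAP1 and is released when electrophiles or oxidants modify KEAP1. It then binds antioxidant response elements, where BACH1 competes with it, and drives genes of glutathione and thioredoxin metabolism, NADPH supply and heme breakdown. Metallothioneins bind zinc and copper through cysteines, are driven by the zinc sensor MTF1 at metal response elements, and also respond to glucocorticoids and oxidants. In tumors, heme oxygenase 1 is known mainly from macrophages, which clear heme and store iron.

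The libraries held 129151823 to 196362818 UMIs (unique molecular identifiers, each marking 1 captured molecule) in 6097 to 8173 barcodes, and 5778 to 7740 cells per library were kept. No whole barcode was shared between libraries. The first 16 bases of a barcode, which mark the droplet, were shared by 10.8% to 14% of 1 library with another. The paper states that samples were pooled for loading, so unshared whole barcodes do not show separate captures. Cells were clustered without the 10 genes and without the other pathway genes named below, and classes were called from marker genes. In macrophage-like, monocyte-like and neutrophil-like cells, all 13, 11 and 11 detected markers of their lists stood above their level in all other cells. In stromal or tumor-like cells 13 of 14 did, with Pecam1 as the exception, and in T-like cells 11 of 11. In NK or ILC1-like cells 10 of 11 did, with Cd200r1 as the exception. The classes were called from these same lists, so these counts are not an independent check of the names. Macrophage-like cells numbered 4500 in isotype control, 3628 in anti-human CTLA-4, 4180 in anti-mouse FcgRII and 4182 in combination. Neutrophil-like cells numbered 111, 93, 49 and 463 in the same order, after a density gradient that favors mononuclear cells. Stromal or tumor-like cells numbered 74, 96, 98 and 77, and had passed a sort for CD45+ cells, a marker that such cells lack. Clusters were set apart as mixed if at least 3 of their 10 leading genes, and more than from their own list, were markers of another class. They held 878, 267, 389 and 770 cells. Other clusters kept their class even where they held some markers of another. Levels are UMIs of a gene per 1000000 UMIs of its class (CPM), with exact Poisson intervals, and ratios carry exact conditional intervals. These intervals, at 95%, cover counting error only. With 1 library per group there was no test, and a treatment and its library cannot be told apart. A probe assay does not give levels per length, so levels are compared within a gene only.

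Promoter sequences are shown because most of these genes stood higher together in macrophage-like cells of the combination library while Mt1 and Mt2 stood lower. RefSeq windows of 300 bases around a start site (GRCm38.p6) were found for 8 of the 10 genes, but not for Hmox1 and Gsr. The 3 motifs searched on both strands were the antioxidant response element TGACNNNGC, the metal response element core TGCACNC or TGCGCNC, and the AP-1 element TGANTCA, which can overlap the first. At least 1 match stood in 12.4%, 25.7% and 7.81% of all 32851 windows of that length. In the windows of Gclm, the modifier subunit of the enzyme that makes the glutathione precursor, and of Prdx1, a peroxiredoxin that reduces peroxides, capitals mark antioxidant response element matches. The Gclm window is chr3:122245307-122245606 (plus strand) and the Prdx1 window is chr4:116685349-116685648 (plus strand).
Gclm: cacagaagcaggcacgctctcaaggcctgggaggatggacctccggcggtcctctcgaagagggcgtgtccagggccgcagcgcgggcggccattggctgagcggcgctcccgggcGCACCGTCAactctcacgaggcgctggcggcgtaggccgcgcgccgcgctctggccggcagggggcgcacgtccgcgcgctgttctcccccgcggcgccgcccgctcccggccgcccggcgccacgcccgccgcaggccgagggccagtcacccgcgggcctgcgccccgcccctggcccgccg
Prdx1: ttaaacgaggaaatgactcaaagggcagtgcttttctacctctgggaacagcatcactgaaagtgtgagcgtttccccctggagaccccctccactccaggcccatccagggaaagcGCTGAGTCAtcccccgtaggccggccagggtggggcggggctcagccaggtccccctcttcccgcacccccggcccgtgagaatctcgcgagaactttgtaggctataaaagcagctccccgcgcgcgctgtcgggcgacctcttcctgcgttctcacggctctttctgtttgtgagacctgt
In the windows of Mt1, chr8:94178839-94179138, and Mt2, chr8:94172368-94172667 (both plus strand), capitals mark metal response element core matches.
Mt1: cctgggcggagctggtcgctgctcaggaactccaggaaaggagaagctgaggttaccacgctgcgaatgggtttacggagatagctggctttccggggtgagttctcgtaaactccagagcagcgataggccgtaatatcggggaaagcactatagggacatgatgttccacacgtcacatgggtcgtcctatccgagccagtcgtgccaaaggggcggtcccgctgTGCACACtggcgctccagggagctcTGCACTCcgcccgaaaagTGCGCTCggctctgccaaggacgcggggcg
Mt2: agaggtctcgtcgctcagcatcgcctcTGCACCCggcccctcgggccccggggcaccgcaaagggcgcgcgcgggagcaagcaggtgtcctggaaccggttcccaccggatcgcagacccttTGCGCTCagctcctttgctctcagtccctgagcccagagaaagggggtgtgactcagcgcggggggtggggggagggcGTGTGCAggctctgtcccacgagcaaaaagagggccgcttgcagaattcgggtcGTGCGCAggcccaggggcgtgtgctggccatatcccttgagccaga

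In GRCm38, Hmox1 lies at chr8:75093621-75100589, Srxn1 at chr2:152105516-152111376, Txnrd1 at chr10:82833951-82897712, Gsr at chr8:33652523-33698163 and Gclm at chr3:122245557-122270732, all on the plus strand. Prdx1 lies at chr4:116685544-116700822 on the plus strand, and Nqo1 at chr8:107388225-107403206 and Slc7a11 at chr3:49892526-50443614 on the minus strand. Counted from 0 at the RefSeq start site of each window, the Gclm match lay at -134 to -126. The Prdx1 match lay at -133 to -125, where an AP-1 element overlapped it. These start sites can differ from the gene starts printed here, as they do for Srxn1, Prdx1, Mt1 and Mt2. The Mt1 window held 3 metal response element cores, all between -23 and 26, and the Mt2 window held 4, where 0.517% of all windows held 4 or more. These cores were not limited to the metallothioneins: the Gclm window held 3, from -138, -72 and 27, and the Srxn1 window 1. The Mt2 window also held an antioxidant response element match, at -79 to -71, which overlapped an AP-1 element. Srxn1 and 1 of 3 windows of Txnrd1 each held 1 antioxidant response element match, and the windows of Nqo1 and Slc7a11 held none of the 3 motifs. Mt2 and Mt1 are neighbors on chromosome 8 (GRCm38), at 94172664 to 94173568 and at 94179082 to 94180327, with 5513 bases between them. Their coding sequences, 183 bases each, were 79.2% identical with a longest identical run of 20 bases. Whether their probes share signal was not tested.

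The classes that led differed from gene to gene. Hmox1, the inducible enzyme that opens the heme ring, was highest in macrophage-like cells (1082 to 1589 CPM over the libraries, median 1456) and in neutrophil-like cells (1019 to 1899 CPM, median 1402), whose ranges overlapped. Both stood apart from every other class, though 10 neutrophil-like cells per library held 35.4% to 81.1% of the Hmox1 UMIs of that class. T-like cells followed at 172 to 761 CPM, and macrophage markers took 0.83% to 2.01% of their UMIs. In T-like cells with under 1% of UMIs on these markers, Hmox1 stood at 39.6 to 254 CPM. Monocyte-like cells stood at 236 to 641 CPM. Gsr, glutathione reductase, was highest in neutrophil-like cells (1265 to 1596 CPM), followed by monocyte-like cells (700 to 969 CPM), and neither range met its neighbor in the order. Its lowest median, 90.9 CPM, was that of macrophage-like cells. Slc7a11, the cystine importer of system xc-, was also highest and apart in neutrophil-like cells (258 to 707 CPM) and at 23.7 to 128 CPM in macrophage-like cells. Mt1 was highest in stromal or tumor-like cells (728 to 1059 CPM), then in macrophage-like cells (425 to 651 CPM), each range apart from the next. Mt2 was likewise highest and apart in stromal or tumor-like cells, at 755 to 1066 CPM against 230 to 359 CPM in macrophage-like cells. Monocyte-like cells held the lowest medians of both, 102 CPM of Mt1 and 18.4 CPM of Mt2. Prdx1 had its highest median in macrophage-like cells (491 to 1118 CPM, median 618), with a range that met that of T-like cells. Srxn1, Txnrd1 and Gclm had their highest medians in stromal or tumor-like cells (64.1, 287 and 100 CPM), and their ranges overlapped those of neutrophil-like cells. Nqo1, a quinone reductase, was low in every class, at no more than 34.8 CPM in neutrophil-like, 21.1 CPM in stromal or tumor-like and 3.28 CPM in macrophage-like cells.

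**Figure D1:**
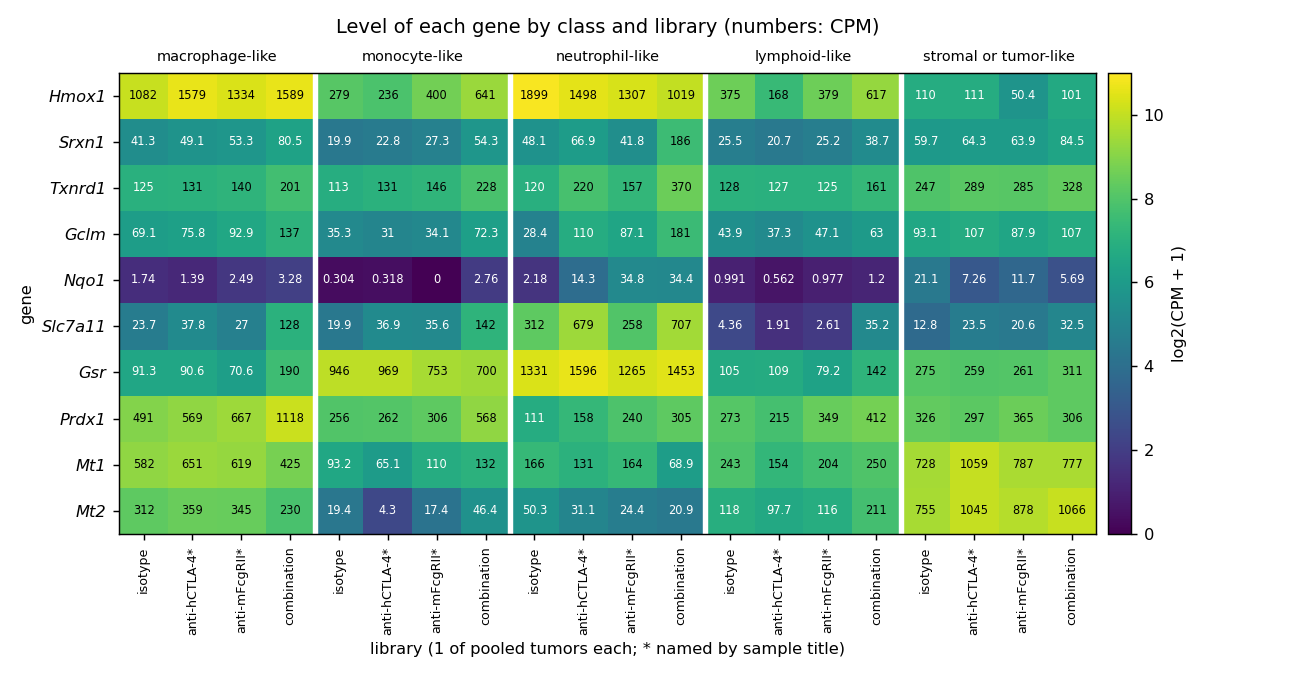
Level of each of the 10 genes (rows, in CPM printed in each cell; color is log2(CPM + 1)) in 5 classes and 4 libraries (columns; 1 library of pooled tumors each, the 2 single antibodies named by sample title). Hmox1 is high in macrophage-like and neutrophil-like cells of all libraries, though 10 neutrophil-like cells per library held 35.4% to 81.1% of its UMIs there. Gsr is high in neutrophil-like and monocyte-like cells, and Mt1 and Mt2 in stromal or tumor-like cells. Slc7a11 in macrophage-like cells stands at 128 CPM in combination against 23.7 to 37.8 in the other libraries.

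In macrophage-like cells, 6 of the 9 genes compared were at least 1.5-fold higher in combination than in isotype control: Slc7a11, Prdx1, Gsr, Gclm, Srxn1 and Txnrd1. Of all 8731 genes with at least 10 CPM in either library, 3.81% were that much higher. The median ratio of the 9 genes was 1.95, against 0.93 over all genes. Hmox1 stood 1.47-fold higher, and Mt1 and Mt2 stood lower by less than 1.5-fold. Nqo1 missed the minimum of 10 CPM and was not compared.

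Slc7a11, the cystine importer, had the highest ratio of the 9 genes. It stood at 23.7 CPM in isotype control, 37.8 in anti-human CTLA-4, 27 in anti-mouse FcgRII and 128 CPM in combination. The combination library was 5.4-fold (5.16 to 5.65) above isotype control, rank 16 of 8731 genes, and no other library came near it. With cells drawn down to 7699 UMIs, 10.2%, 13.9%, 10.3% and 38.1% of macrophage-like cells held a Slc7a11 UMI in the 4 libraries. In lymphoid cells, drawn down to 2236 UMIs, the shares were 0.493%, 0.194%, 0.214% and 2.95%. Before drawing down, median depths were 16719 to 22047 UMIs in macrophage-like and 4537 to 6131 UMIs in lymphoid cells. Slc3a2, the partner subunit of the importer, stood 1.32-fold higher in combination. Gclm stood at 69.1, 75.8, 92.9 and 137 CPM in the same order of libraries, a ratio of 1.97 (1.92 to 2.03) between combination and isotype control. Gclc, the catalytic partner of Gclm, stood at 31.1 CPM in isotype control and 30.1 CPM in combination, a ratio of 0.965 (0.918 to 1.02), so the 2 subunits differed.

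Of the genes that recycle glutathione, thioredoxin and peroxiredoxins, Gsr stood at 91.3, 90.6, 70.6 and 190 CPM, 2.08-fold (2.03 to 2.13) higher in combination than in isotype control. It was lowest in anti-mouse FcgRII, at 0.773 of isotype control. Prdx1 stood at 491, 569, 667 and 1118 CPM, a ratio of 2.28 (2.25 to 2.3). Nearly every cell held a Prdx1 UMI, 90.7% to 95.1% after drawing down, and the median cell held 6, 8, 9 and 13 UMIs. Srxn1, sulfiredoxin, which restores overoxidized peroxiredoxins, stood at 41.3, 49.1, 53.3 and 80.5 CPM, a ratio of 1.95 (1.88 to 2.02). Txnrd1, thioredoxin reductase, stood at 125, 131, 140 and 201 CPM, a ratio of 1.62 (1.58 to 1.65). Srxn1, Txnrd1, Gclm and Prdx1 had the same order of libraries: isotype control lowest, then anti-human CTLA-4, anti-mouse FcgRII and combination.

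Hmox1 followed another order. It stood at 1082 CPM in isotype control, 1579 in anti-human CTLA-4, 1334 in anti-mouse FcgRII and 1589 in combination, and the ratio of combination to anti-human CTLA-4 was 1.01 (0.999 to 1.01). Per cell the order was different again, with a median of 5, 6, 6 and 11 UMIs. The share of cells with a UMI after drawing down was 75.7%, 78.7%, 81.2% and 86.6%. Thus anti-human CTLA-4 matched combination in summed level but not in the median cell. Scaling by median-of-ratios size factors, which moves the median log2 ratio of all genes by 0.113 from 0.93-fold to 1.01-fold, takes Hmox1 past 1.5-fold and the count of genes to 7 of 9. Nqo1, with 161, 112, 232 and 361 UMIs, stood at 1.74, 1.39, 2.49 and 3.28 CPM.

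The metallothioneins ran against the other genes. Mt1 stood at 582, 651, 619 and 425 CPM, and Mt2 at 312, 359, 345 and 230 CPM. Combination was the lowest library for both, at 0.731 (0.722 to 0.74) and 0.737 (0.724 to 0.749) of isotype control, ranks 8242 and 8209 of 8731. Of all genes, 2.79% were at least 1.5-fold lower. The share of cells with an Mt2 UMI after drawing down was 31.2%, 29.1%, 31.4% and 24.9%. T cell, NK or ILC1, B cell, neutrophil and stromal or tumor markers each took no more than 0.037% of UMIs of macrophage-like cells in any library, the highest being neutrophil markers in combination against 0.021% to 0.0236% in the others. All 11 neutrophil markers had UMIs in 3 libraries, and Ly6g was at 0 in isotype control. Their part in these ratios was not tested.

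**Figure D2:**
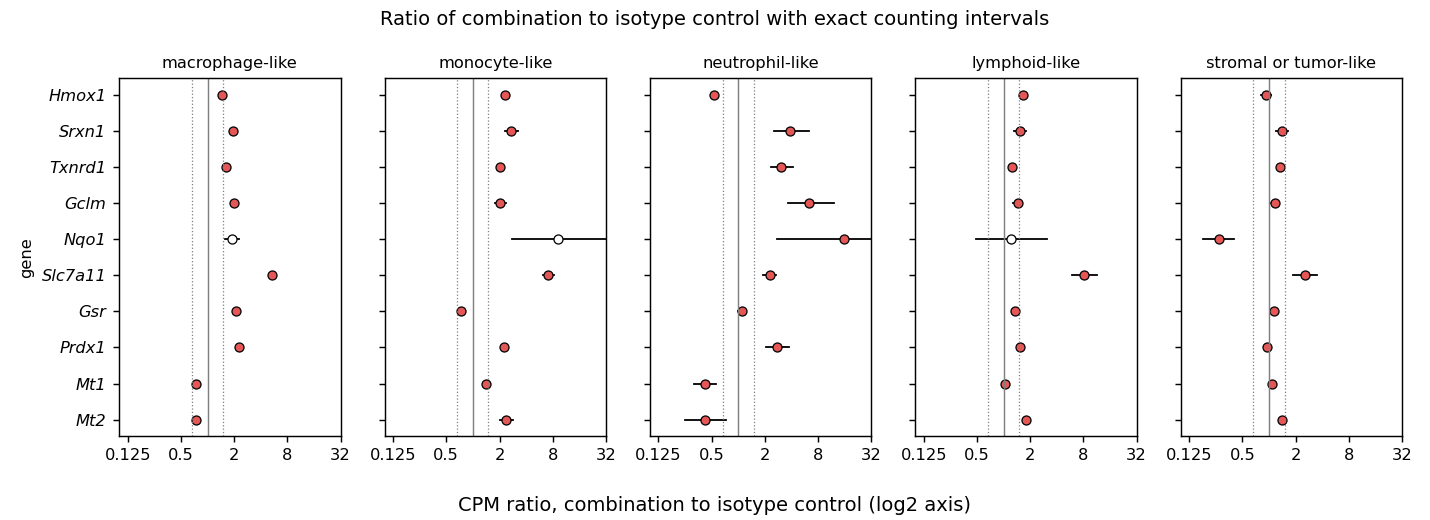
Ratio of CPM in combination to isotype control (x, log2 axis) for each gene (y) in 5 classes, 1 library each; bars are exact 95% intervals for counting error, cut at the panel's limits, open circles are genes under 10 CPM in both libraries, and dotted lines mark 1.5-fold. Slc7a11 lies right of 1.5-fold in all 5 classes, from 2.26 in neutrophil-like to 8.08 in lymphoid cells, and Mt1 and Mt2 lie left of 1 in macrophage-like and neutrophil-like cells.

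The single antibodies were nearer to isotype control than the combination was in most of these genes. Hmox1 in anti-human CTLA-4 nearly matched combination, at 1579 and 1589 CPM against 1082 CPM in isotype control. In anti-human CTLA-4, 1 of 9 genes was at least 1.5-fold above isotype control, Slc7a11 at 1.6 (1.51 to 1.69), where 0.612% of 8664 genes were, and none was that much lower, where 0.727% were. In anti-mouse FcgRII none of the 9 was higher or lower, where 0.623% and 1.59% of 8668 genes were, and its highest ratios were 1.36 for Prdx1 and 1.34 for Gclm. Both libraries held slightly more Mt1 and Mt2 than isotype control, at 1.06 to 1.15 of it. Set against anti-human CTLA-4, combination was at least 1.5-fold higher in 6 of 9 genes (3.1% of all genes) and lower in Mt1 and Mt2, at 0.653 and 0.64 (1.74% of all genes). Against anti-mouse FcgRII it was higher in Slc7a11, Gsr, Prdx1 and Srxn1 (5.38% of all genes) and lower in Mt2, at 0.666 (3.35%). These comparisons share the combination or the isotype control library. The highest of the 3 ratios of Slc7a11 was against isotype control (5.4) and that of Gsr against anti-mouse FcgRII (2.69).

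Macrophage-like cells formed 11 clusters, and 7 of the 8 oxidative stress genes had ratios above 1 in at least 10 of them. The ratio of combination to isotype control was above 1 in 11 of 11 clusters for Hmox1, Srxn1, Gclm, Slc7a11 and Prdx1, and in 10 of 11 for Txnrd1 and Gsr. Nqo1 stood at no more than 4.42 CPM in any cluster. A count of 0 was set to a floor of 3 UMIs, and with it the Nqo1 ratio was above 1 in 8 clusters. The floor reversed the direction in clusters 20 and 21. In cluster 20 Nqo1 stood at 2.3 CPM in isotype control and 0 in combination, and counted as above 1. In cluster 21 it stood at 0 and 1.64 CPM, with a ratio of 0.354. For Mt1 the ratio was above 1 in 4 and for Mt2 in 3 clusters. Slc7a11 was at least 1.5-fold higher in 10 clusters, from 1.12-fold (0.486 to 2.36) in cluster 20 to 17-fold (4.34 to 147) in cluster 21. These clusters held 22 and 29 cells of the combination library, and the latter ratio is against 3.08 CPM in 34 cells of isotype control. Cluster 1 was led by Ly6i, Slc4a11 and Pdcd1lg2, with Ccl24, Ccl17, Slc7a2 and Nos2 also among its 10 leading genes. It had the highest ratios of Hmox1 (3.67) and Prdx1 (3.74). Cluster 9, led by histone genes, had the lowest of Mt1 (0.581) and Mt2 (0.485), and cluster 20 the highest, 2.67 and 4.04.

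The levels themselves were concentrated. Hmox1 reached 5143 CPM in cluster 2, led by Ctsk and the heat shock genes Hspa1a, Hspb1 and Hspa1b, against 459 CPM in cluster 9, an 11.2-fold range. Mt1 (1815 CPM) and Mt2 (1353 CPM) were highest in cluster 2 too, 8-fold and 20-fold above cluster 3. Slc7a11 (185 CPM), Gsr (283 CPM), Prdx1 (1379 CPM) and Txnrd1 were highest in cluster 5, led by Mmp12, F7 and Spp1. Cd36, which is known for lipid uptake, was also among its 10 leading genes. Gclm stood at 164 CPM in both cluster 2 and cluster 5. Cluster 2 made up 16.4%, 16.4%, 14.9% and 11.6% of macrophage-like cells in isotype control, anti-human CTLA-4, anti-mouse FcgRII and combination. It held 46.5%, 47.5%, 50% and 26.6% of their Hmox1 UMIs and 47%, 56%, 52.1% and 40.5% of their Mt2 UMIs. With the cluster makeup held equal the ratio of Hmox1 was 1.65, that of Mt1 0.859 and that of Mt2 0.948. Without cluster 2 and the other heat shock cluster, 20, they were 2, 0.79 and 0.755. So Hmox1 passed 1.5-fold once makeup was held equal, whereas Mt2 then lay close to 1. That Mt2 value gives cluster 20 its weight over all libraries, though only 22 of its cells came from combination. Mt2 stood there at 696 CPM in isotype control and 2815 CPM in combination, and its ratio was above 1 in 3 of 11 clusters. How far the makeup set the Mt2 ratio was not tested. Hspa1a stood at 513, 426, 429 and 96.3 CPM in macrophage-like cells and Hspa1b at 616, 480, 511 and 118 CPM, both lowest in combination, and their part in the metallothionein ratios was not tested.

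**Figure D3:**
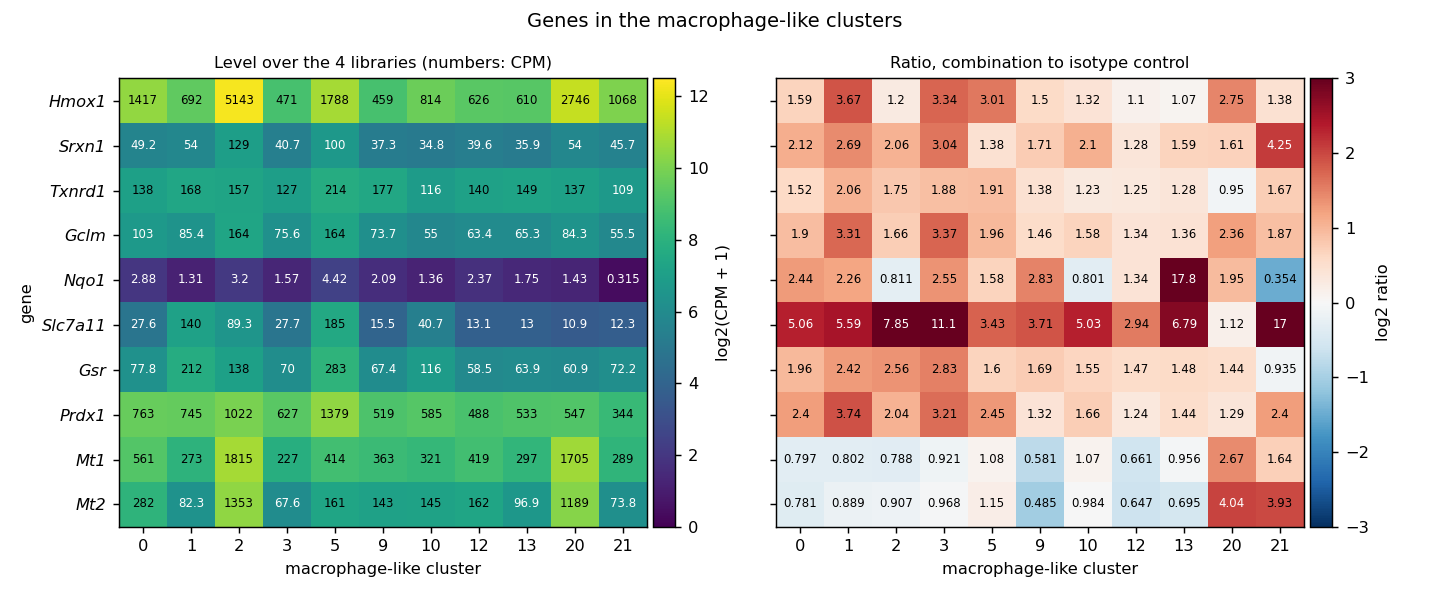
The 10 genes (rows) in the 11 macrophage-like clusters (columns): left, level over the 4 libraries together (CPM printed, color log2(CPM + 1)); right, ratio of CPM in combination to isotype control (ratio printed, color log2 ratio, which saturates at 3 in either direction). Hmox1, Mt1 and Mt2 peak in clusters 2 and 20 and Slc7a11, Gsr and Prdx1 in cluster 5, while the rows of Hmox1, Srxn1, Gclm, Slc7a11 and Prdx1 are above 1 in every cluster. The Nqo1 ratios of clusters 20 and 21 rest on a floor of 3 UMIs for a count of 0 and do not give the direction.

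The regulators did not stand apart with their known target genes. In macrophage-like cells Nfe2l2 stood at 425 CPM in isotype control and 397 in combination (ratio 0.933), Keap1 at a ratio of 1.2, Bach1 at 0.784 and the zinc sensor Mtf1 at 0.898. Of 8 genes of NRF2 control none was 1.5-fold higher and 1 was lower, Bach2 at 0.505, and the median was 1.01. The counts of this and the following lists stand beside 3.81% of all genes higher and 2.79% lower. Of 10 glutathione genes 4 were higher, led by the microsomal transferase Mgst1 (73.5 to 184 CPM, 2.5-fold) with Glrx, Abcc1 and Gstm1, and the lowest was Gsto1 at 0.865. The median of this list was 1.36. Of 8 thioredoxin and peroxiredoxin genes 3 were higher: Prdx6 (1.98), Prdx5 (1.73) and Txn1 (1.55). The lowest of them was Txnrd2 at 0.861, and the list had a median of 1.01.

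Of 6 heme and iron genes 3 were higher: Fth1, the ferritin heavy chain that stores iron (7621 to 15809 CPM, 2.07-fold), Blvrb, a biliverdin reductase (2.03), and Slc48a1, which carries heme out of lysosomes (1.85). Hmox2, the constitutive heme oxygenase, was the lowest of them at 0.94. Of 6 genes of radical removal and oxidant sources 2 were higher, Nos2, the inducible nitric oxide synthase (107 to 926 CPM, 8.62-fold), and Sod2 (2.86), while Sod1 stood at 0.759. No gene passed 1.5-fold in either direction among 5 genes of NADPH supply (Tkt 0.849 to Taldo1 1.19), 4 of zinc and metal handling (Slc39a14 0.691 to Slc30a1 1.24) or 4 of the stress and amino acid response (Atf4 0.813 to Ddit3 1.18). Their medians were 1.17, 0.89 and 0.965, beside 0.93 over all genes. Within these lists, genes other than the regulators, the partner subunits and the highest and lowest of each list were named after their values were seen.

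**Figure D4:**
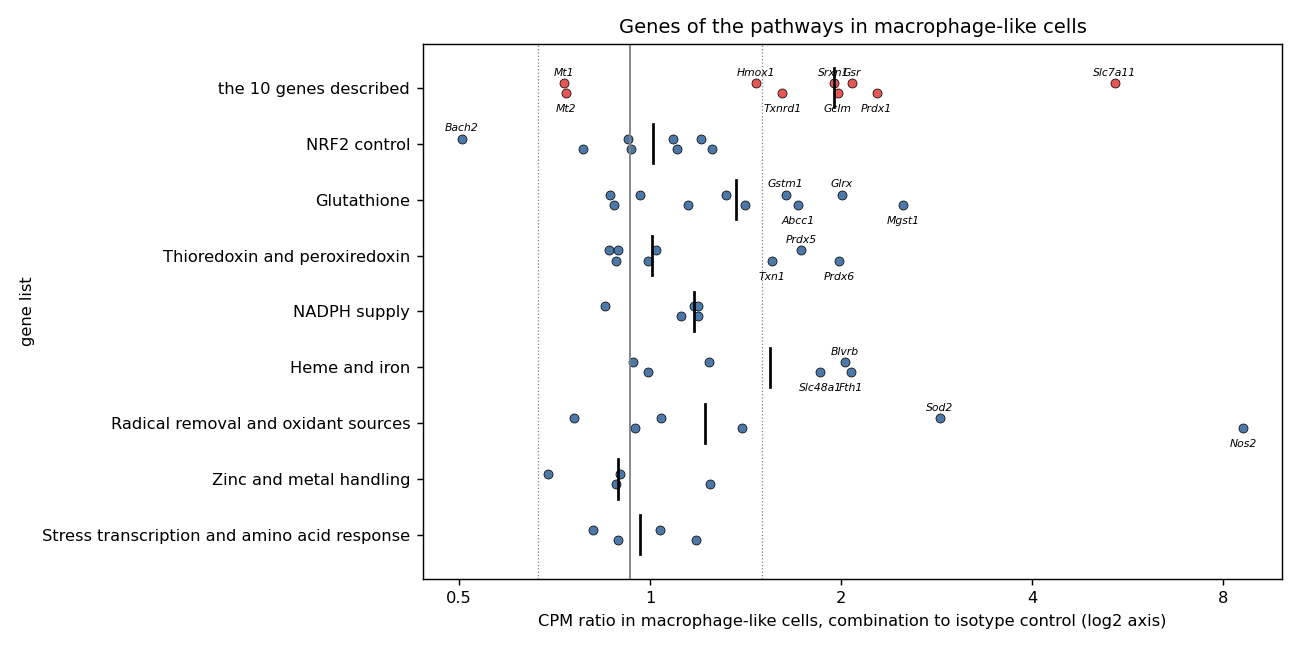
Ratio of CPM in combination to isotype control in macrophage-like cells (x, log2 axis) for genes of each list (y); points are genes with at least 10 CPM in either library, black bars the median of each list, the grey line the median over all 8731 genes (0.93), dotted lines 1.5-fold. The 10 genes described have a median of 1.95 from 9 points, and Nos2 at 8.62 is the rightmost point.

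Monocyte-like cells, 416 to 1010 per library, showed the pattern of macrophage-like cells in most genes but not in the metallothioneins. In combination against isotype control, 7 of 9 genes were at least 1.5-fold higher, where 6.11% of 8287 genes were, and none was lower, where 4.75% were. The median ratio was 2.22, against 0.944 over all genes. Slc7a11 stood at 19.9, 36.9, 35.6 and 142 CPM, 7.14-fold (6.14 to 8.34) higher in combination. Srxn1 stood at 19.9, 22.8, 27.3 and 54.3 CPM (2.72), Gclm at 35.3, 31, 34.1 and 72.3 CPM (2.05), and Prdx1 at 256, 262, 306 and 568 CPM (2.22). Combination was the highest library for all of these, as for Txnrd1 (2.01) and Hmox1 (2.3). Hmox1 stood at 279, 236, 400 and 641 CPM, and 10 cells held 20.9% to 54.9% of its UMIs. Mt2 stood at 19.4, 4.3, 17.4 and 46.4 CPM, a ratio of 2.39 (2 to 2.85), and Mt1 at a ratio of 1.42. Mt2 was thus higher in combination in monocyte-like and lower in macrophage-like cells, with 44.4% to 86.1% of its UMIs in monocyte-like cells held by 10 cells, and the difference between the classes was not tested. Gsr ran the other way from macrophage-like cells, at 946, 969, 753 and 700 CPM, a ratio of 0.739 (0.716 to 0.764). Within the monocyte-like clusters 6 and 8 its ratios were 0.966 and 0.859, and its levels over all libraries 499 and 1307 CPM. Cluster 6 held 442 cells in isotype control and 408 in combination, and cluster 8 held 568 and 223. With the cluster makeup held equal the ratio of Gsr was 0.894. How far the makeup set this ratio was not tested. Neutrophil markers took 0.0584%, 0.0608%, 0.0442% and 0.105% of monocyte-like UMIs, and their part in these ratios was not tested. The share of macrophage markers in monocyte-like cells was not measured. In combination, 10 cells held 36.8% of the Prdx1, 34.7% of the Gclm and 33.3% of the Srxn1 UMIs, against 8.99%, 19.2% and 22.3% in isotype control. For Slc7a11 these shares were 23% and 27.9%. In clusters made without integration across libraries, 4 of 9 genes passed, and Hmox1 (0.975), Gclm (1.22) and Prdx1 (1.17) were no longer apart, and Slc7a11 stood at 3.68.

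Neutrophil-like cells, which are short-lived and carry little RNA, had 287014 to 2148537 UMIs per library in all. Of the 10 genes, 6 were at least 1.5-fold higher in combination than in isotype control, where 14.2% of 8095 genes were, and 3 were lower, where 21.2% were. Gclm stood at 28.4, 110, 87.1 and 181 CPM, a ratio of 6.36 (3.67 to 12). Srxn1 stood at 48.1, 66.9, 41.8 and 186 CPM (3.86; 2.52 to 6.24), and Txnrd1 at 120, 220, 157 and 370 CPM (3.08; 2.34 to 4.12). Slc7a11 stood at 312, 679, 258 and 707 CPM, so anti-human CTLA-4 was near combination here, at a ratio of 1.04 (0.917 to 1.19) between them. Prdx1 stood 2.74-fold higher in combination. Nqo1 had 1, 6, 10 and 74 UMIs, and its ratio of 15.8 (2.74 to 631) rests on the single UMI of isotype control.

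Hmox1, by contrast, was lowest in combination among neutrophil-like cells, at 1899, 1498, 1307 and 1019 CPM, a ratio of 0.537 (0.496 to 0.581). Of its UMIs, 10 cells held 69.7%, 79.6%, 81.1% and 35.4%. Mt1 (166, 131, 164 and 68.9 CPM) and Mt2 (50.3, 31.1, 24.4 and 20.9 CPM) stood at 0.415 and 0.417, from 76 and 23 UMIs in isotype control. Gsr stood at 1331, 1596, 1265 and 1453 CPM, a ratio of 1.09 between combination and isotype control. All 13 macrophage markers had UMIs in neutrophil-like cells and took 1.06%, 0.684%, 2.28% and 0.857% of their UMIs. In cells under 1% of such UMIs, Mt1 stood at 36 CPM in isotype control and 47.1 in combination, and Mt2 at 14.4 and 22.3 CPM, which turned both ratios, to 1.31 and 1.54. Hmox1 in those cells stood at 2400, 971, 1968 and 1106 CPM. Combination was thus still below isotype control, but anti-human CTLA-4 was the lowest library. With 10% doublets left out the ratio of Hmox1 between combination and isotype control was 0.707. Cluster 14 held 77, 76, 33 and 431 of the neutrophil-like cells and cluster 23, with Retnlg and Lcn2, held 34, 17, 16 and 32. In cluster 14 alone Gsr passed 1.5-fold, at 1.57, and Hmox1 stood at 2770, 1744, 1806 and 1065 CPM, and in cluster 23 at 139, 65.2, 171 and 288 CPM, so combination was lowest in the one and highest in the other.

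In lymphoid cells (T-like, NK or ILC1-like and B-like together), 5 of 9 genes were at least 1.5-fold higher in combination, where 3.79% of 9377 genes were: Slc7a11 (8.08), Mt2 (1.78), Hmox1 (1.64), Srxn1 (1.52) and Prdx1 (1.51). None was lower, where 5.37% were. Slc7a11 had 44 UMIs in isotype control and 382 in combination, and 10 cells held 72.7% and 46.9% of them. For Mt2 10 cells held 43.6% and 58.4%, for Hmox1 44.2% and 53.1%, for Srxn1 29.6% and 30.2%, and for Prdx1 19.5% and 35.7%. Srxn1 and Prdx1 lay at the limit, and with 10% doublets left out both, and Hmox1, were below it at 1.46, 1.47 and 1.42. The macrophage markers, all 13 with UMIs, took 1.67%, 0.657%, 1.58% and 1.1% of lymphoid UMIs. Hmox1 stood at 375, 168, 379 and 617 CPM, and at 88.9, 37.7, 44.7 and 146 CPM in cells under 1% of macrophage UMIs. Slc7a11 stood at 4.36, 1.91, 2.61 and 35.2 CPM, and at 1.81, 0.887, 0.385 and 15.6 CPM in those cells. Both genes stood lower in these cells than in all lymphoid cells of each library, and combination was still the highest. This did not hold for Hmox1 in NK or ILC1-like cells taken alone. Under that limit it stood there at 88.2, 17.8, 50.1 and 65.1 CPM, so combination was below isotype control. Cluster 16 was a T-like cluster with Ifng, Lag3, Cd8a, Cd8b1 and Pdcd1 among its 10 leading genes. It also held macrophage markers, though none was among those 10. Without this cluster, the ratio of Hmox1 was 3.26 and that of Mt2 3.59. Without integration 2 genes were at least 1.5-fold apart, counting both directions: Hmox1 (0.389) on the lower side and Mt2 on the higher side. Srxn1 (0.917), Gclm (0.724) and Prdx1 (0.747) were then also lower in combination. Slc7a11 stood at 1.51 and was not among the 2 genes counted.

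Metallothioneins differed within the lymphoid cells. In NK or ILC1-like cells Mt1 stood at 163, 92.6, 227 and 390 CPM, and Mt2 at 94.6, 103, 196 and 446 CPM, ratios of 2.39 (2.15 to 2.66) and 4.71 (4.13 to 5.39). In cells under 1% of macrophage UMIs they stood at 81.5 and 52.5 CPM in isotype control and 396 and 446 CPM in combination. Over the libraries, 10 NK or ILC1-like cells held 57% to 84.1% of the Mt1 UMIs and 67% to 97.7% of the Mt2 UMIs. The level lay mostly in cluster 17, where Mt2 stood at 142, 193, 273 and 623 CPM. This cluster was led by granzyme genes Gzmc, Gzmd and Gzmg, with Ncr1 among its 10 leading genes. It made up 101, 116, 87 and 197 of the 352, 424, 238 and 439 NK or ILC1-like cells. In T-like cells Mt1 stood at 275, 179, 189 and 163 CPM and Mt2 at 129, 96.6, 71 and 68.5 CPM, ratios of 0.591 (0.549 to 0.637) and 0.533 (0.475 to 0.596). The lower values lay in cluster 16, with ratios of 0.531 and 0.31. In the other T-like cluster, 7, the ratio of Mt1 was 1.03 (0.887 to 1.21) and that of Mt2 1.39 (1.13 to 1.71). In T-like cells under 1% of macrophage UMIs, Mt1 stood at 110, 108, 58.1 and 79.7 CPM and Mt2 at 50.7, 66.5, 25.5 and 27.4 CPM. Combination was thus still below isotype control for both genes, and anti-human CTLA-4 was the highest library for Mt2. In T-like cells 6 of 9 genes were higher (4.32% of 9319 genes) and 2 lower (4.84%), and in NK or ILC1-like cells 4 of 9 were higher (4.29% of 9239 genes) and none lower (7.23%). In T-like cells under 1% of macrophage UMIs, isotype control and combination lay closer for Gclm (40.5 and 42.9 CPM), Srxn1 (23.3 and 30.1), Gsr (111 and 148) and Prdx1 (147 and 211). Hmox1 stood there at 93.2 and 254 CPM, and Slc7a11 at 1.52 and 24.1 CPM. The 4 genes of NK or ILC1-like cells included Hmox1, which was lower in combination in cells under that limit.

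Stromal or tumor-like cells held the highest metallothionein levels and the fewest differences. Only Slc7a11 was at least 1.5-fold higher in combination (3.13% of 9682 genes), at 12.8, 23.5, 20.6 and 32.5 CPM, a ratio of 2.54 (1.86 to 3.51). Only Nqo1 was lower (7.49%), at 21.1, 7.26, 11.7 and 5.69 CPM, a ratio of 0.27 (0.179 to 0.4), and 10 cells held 55.1% to 78.6% of its UMIs. Mt1 stood at 728, 1059, 787 and 777 CPM, highest in anti-human CTLA-4, and Mt2 at 755, 1045, 878 and 1066 CPM. Of the Mt2 UMIs, 10 cells held 37% to 68.2%. When each cell was given the same weight, 6 of 10 genes passed 1.5-fold in place of 2. The 13 macrophage markers took 0.0854% to 0.159% of UMIs in this class.

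From cell to cell in macrophage-like cells, Mt1 and Mt2 had Pearson correlations of 0.731 to 0.785 over the cells of each library, and Hmox1 with Mt1 of 0.408 in combination to 0.62. In combination Hmox1 correlated more with Prdx1 (0.544) and Gclm (0.491) than with Mt1 or Mt2 (0.372). Nqo1 reached no more than 0.263 with any of the other genes, with Gclm. Gclm and Prdx1 correlated at 0.418 to 0.636, highest in combination, and Slc7a11 and Gsr at 0.356 to 0.559. Gsr and Mt2 showed almost no relation, at -0.0526 to 0.101. Cells of 1 library share its depth and processing, so these values are a description. Over 32 sums (8 classes in 4 libraries) and 11757 genes, the gene most like Txnrd1 was Txn1, its substrate, at r = 0.928. The closest to Slc7a11 was Tnfaip2 (0.9), to Gsr Sgms2 (0.904), to Hmox1 Hyal1 (0.879) and to Prdx1 Akr1a1 (0.871). Mt1 was closest to Vdac1 (0.865), Mt2 to Rhoc (0.88), Nqo1 to Csta2 (0.888), Gclm to S1pr2 (0.804) and Srxn1 to Gng12 (0.764).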

How the data were processed

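Fixed cells sorted as live CD45+ were profiled by probe hybridization (10x Flex), and 4 libraries of pooled tumors were analysed. The deposited matrices hold raw UMI counts per gene and cell, made by the authors with Cell Ranger (7.0.0 per the processing notes, 7.2.0 per the file headers) on mm10. The article differs from the labels in the number of mice, day, dose and tumor size and states fewer cells; the labels were followed. Cells with at least 500 genes and at most 10% mitochondrial UMIs were kept, without the 5% highest doublet scores of each library (scanpy 1.11.5), leaving 26782. These were normalized and integrated (Seurat 5.3.0, sctransform 0.4.2) and clustered at resolution 0.8 on 30 principal components into 26 clusters, called by marker lists. UMIs were summed per class and library. Genes needed 10 CPM in either library to be compared, and 1.5-fold counted as apart. For shares of cells with a UMI, each cell was thinned to the UMI total at the 10th percentile of its class. Only the ratios and their intervals were checked on simulated data, Poisson counts drawn from the macrophage-like sums with known ratios put in. The simulated ratios were divided by their median, unlike those reported. Filtering, integration, clustering, class calls, thinning and variation between cells were not simulated. Gene positions follow GENCODE M21. All 10 genes were named, with regulators, partner subunits and the ends of each pathway list; the members and lists were chosen with earlier results of these data known.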

Additional observations from a re-analysis of the deposited data

Results flagged for a closer look

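For 3 genes the ratio of combination to isotype control was at least 1.5-fold higher in 1 class and at least 1.5-fold lower in another, and with 1 library per group none of these differences was tested. Hmox1 stood at a ratio of 2.3 in monocyte-like cells, or 0.975 without integration, and 0.537 in neutrophil-like cells. Nqo1 stood at 15.8 in neutrophil-like cells, from 1 UMI in isotype control, and at 0.27 in stromal or tumor-like cells. Mt2 stood at 2.39 in monocyte-like cells and 0.417 in neutrophil-like cells, from 23 UMIs of isotype control in the latter. In neutrophil-like cells with under 1% of UMIs on another class the Mt2 ratio was 1.54, on the same side as in monocyte-like cells.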

How the results depend on the processing

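Of 63 counts of genes at least 1.5-fold apart between combination and isotype control under other settings, 55 stayed within 1.5 times the reported count. With a fold of 2 the count was 3 in macrophage-like and 1 in lymphoid cells. Without integration it was 4 in monocyte-like and 2 in lymphoid cells, where Hmox1 (0.975 in monocyte-like; 0.389 in lymphoid), Srxn1 (0.917 in lymphoid) and Prdx1 (0.747 in lymphoid) turned direction. In lymphoid cells the count was 2 with 10% doublets left out and 3 at a minimum of 50 CPM. In stromal or tumor-like cells it was 6 by the mean over cells and 0 at a minimum of 50 CPM. Mt1 (1.31) and Mt2 (1.54) of neutrophil-like cells turned when cells with 1% or more of UMIs on another class were left out. Apart from what these settings do by construction, the cause was not tested. Of 530 ratios, 393 moved by less than their counting interval, 131 moved beyond it, and 6 that had been at least 1.5-fold apart turned. In macrophage-like cells Slc7a11, Prdx1, Gsr, Gclm, Srxn1 and Txnrd1 were at least 1.5-fold higher in combination under every setting run at that fold. Another 4 settings were chosen after seeing the data: equal cluster makeup, macrophage-like cells without clusters 2 and 20, lymphoid cells without cluster 16 and cluster 14 alone. Without drawing down, 157 of 200 shares of cells with a UMI moved, as depth sets them. No paired analysis was possible because every group has 1 library and no replicate numbers that pair samples, and no library could be left out. Of the 5 classes described, neutrophil-like and stromal or tumor-like cells had the fewest cells.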
